A study of Homo sapiens with 9 samples.

Results

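Ribosome biogenesis factors are the proteins that transcribe ribosomal DNA and cut, modify and fold its transcript into the small (40S) and large (60S) ribosomal subunits, most of them in the nucleolus. RNA polymerase I makes the precursor, box C/D and box H/ACA ribonucleoproteins guided by small nucleolar RNAs methylate and pseudouridylate it, the small subunit processome carries the early cleavages, and a further set of factors builds the large subunit. These genes are known for high expression in growing cells and in tumours. The members described here are 40 genes, named as nucleolar and ribosome assembly factors and RNA polymerase I genes and found by matching Ensembl identifiers to symbols, of 60664 genes listed in the counts. All 40 passed the filter on low counts, and 18264 genes were tested in all.

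The RNA came from the human breast cancer line MDA-MB-231 on day 6 of culture. There were 3 groups of 3 samples: scramble control (SC) cells at a medium viscosity of 0.77 cP, SC cells at 8 cP, and cells with a short hairpin RNA against *TRPV4* (shTRPV4), a calcium-permeable ion channel, at 8 cP. Viscosity was raised with methylcellulose, so that viscosity and this additive cannot be told apart in these samples. Both kinds of cells were stable lentiviral transductants of the same line in the pLKO.1 puro backbone. Cells carrying this backbone were kept in puromycin. The study's methods name 1 hairpin sequence for most experiments, so that effects of the hairpin other than on *TRPV4* cannot be told apart from the knockdown. The samples hold no shTRPV4 cells at 0.77 cP, so how these cells respond to viscosity was not measured. The study's general statement on statistics speaks of biological replicas for its experiments, but neither the labels nor the methods of the sequencing say whether the 3 samples of a group were separate cultures, and p-values then measure only the spread between these samples.

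Total counts lay between 64571681 and 103518036 per sample. Levels are CPM, counts scaled to a common library size after TMM scaling, which makes them shares of the measured RNA, so that more cells expressing a gene and more of its RNA per cell cannot be told apart. *TRPV4* had between 24 and 64 counts in each SC sample and 7, 1 and 13 counts in the shTRPV4 samples, a log2 difference of −2.51 ± 0.49 (SE) between the groups at 8 cP (edgeR quasi-likelihood test, adjusted p = 0.00219), where the value of 1 count lies under the floor of 3. The 5 genes listed as markers of the line (*VIM*, *CD44*, *KRT18*, *CAV1* and *MSN*) had group means of at least 291 CPM. Of 15 markers of other cell types, *EPCAM* had group means of up to 19.0 CPM, *GATA3* up to 15.8, *COL1A1* up to 6.40, *CD14* up to 5.86 and *PECAM1* up to 5.04. The other 10, among them *ESR1*, *CDH1*, *PTPRC* and *CDH5*, had group means of at most 0.147 CPM. Across the SC groups at 0.77 and 8 cP and then the shTRPV4 group, the mean of *PECAM1* went from 5.04 to 2.75 and 2.18 CPM, that of *CD14* from 5.86 to 4.25 and 3.47, and that of *COL1A1* from 6.40 to 5.03 and 4.43, and their part in the results was not tested.

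Many of the factors were higher, by a small amount, at each of 2 steps, from low to high viscosity and from SC to shTRPV4 cells at high viscosity. From SC cells at 0.77 cP to SC cells at 8 cP, 23 of the 40 (57.5%) rose and 0 fell, against 9.57% of all genes tested that were called higher and 9.69% called lower. At 8 cP, 20 (50%) were higher in shTRPV4 cells than in SC cells and 1 (2.5%) was lower, against 9.02% and 11.0% of all genes. Over both steps, from SC cells at 0.77 cP to shTRPV4 cells at 8 cP, 33 (82.5%) were higher and 0 lower, against 20.4% and 22.0% of all genes. Calls are edgeR quasi-likelihood tests with an adjusted p below 0.05 over all genes tested. The median log2 difference of the 40 was 0.187 with viscosity (13.8%), 0.168 with the knockdown (12.4%) and 0.352 over both (27.7%), while the medians of all genes were −0.00647, 0.000645 and −0.0108. The first 2 comparisons share the SC samples at 8 cP, and the third differs in both viscosity and hairpin, whose parts in it cannot be told apart.

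The same order showed in the single samples. The summed level of the 40 was 6005, 6015 and 6441 CPM in SC cells at 0.77 cP, 6564, 6767 and 7054 CPM in SC cells at 8 cP, and 7411, 7361 and 7380 CPM in shTRPV4 cells. No sample of one group reached into the range of the next. *NPM1* and *NCL* together made up 37.9% to 43.3% of this sum, so a second measure gave each gene equal weight: the median over the 40 of the log2 deviation from a gene's mean. This was −0.214, −0.215 and −0.0956 in SC cells at 0.77 cP, −0.0306, −0.0208 and 0.0668 in SC cells at 8 cP, and 0.216, 0.156 and 0.154 in shTRPV4 cells. By this measure too the 3 groups did not overlap, and replicate 3 stood highest within each of the SC groups.

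The counts of members called rested on single samples more than the medians did. Leaving out replicate 1 of SC cells at 0.77 cP lowered the count for viscosity from 23 to 8, leaving out replicate 2 of that group lowered it to 12, and leaving out replicate 3 of SC cells at 8 cP lowered it to 9. In these fits the median stayed between 0.155 and 0.249 across all samples left out in turn, and calls over all genes, 1748 higher and 1770 lower with all samples, fell too, to 1409, 1927 and 1418 in both directions together. For the knockdown the count of 20 became 12 without replicate 1 and 11 without replicate 2 of SC cells at 8 cP. Calls over all genes, 1647 higher and 2002 lower with all samples, fell too. They became 2361 and 2179 in both directions together. Over both steps the count of members stayed between 32 and 35. With viscosity *POLR1B*, *DKC1*, *HEATR1*, *RRP12*, *RRP1B*, *NIP7*, *BRIX1* and *RRS1* passed in all of 17 alternatives, and with the knockdown *POLR1B*, *POLR1C*, *NOP56*, *DDX21*, *UTP4*, *UTP20*, *BYSL*, *NOP16*, *NIP7* and *RRS1* did. Each other call at either step was lost in at least 1 alternative.

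**Figure D1:**
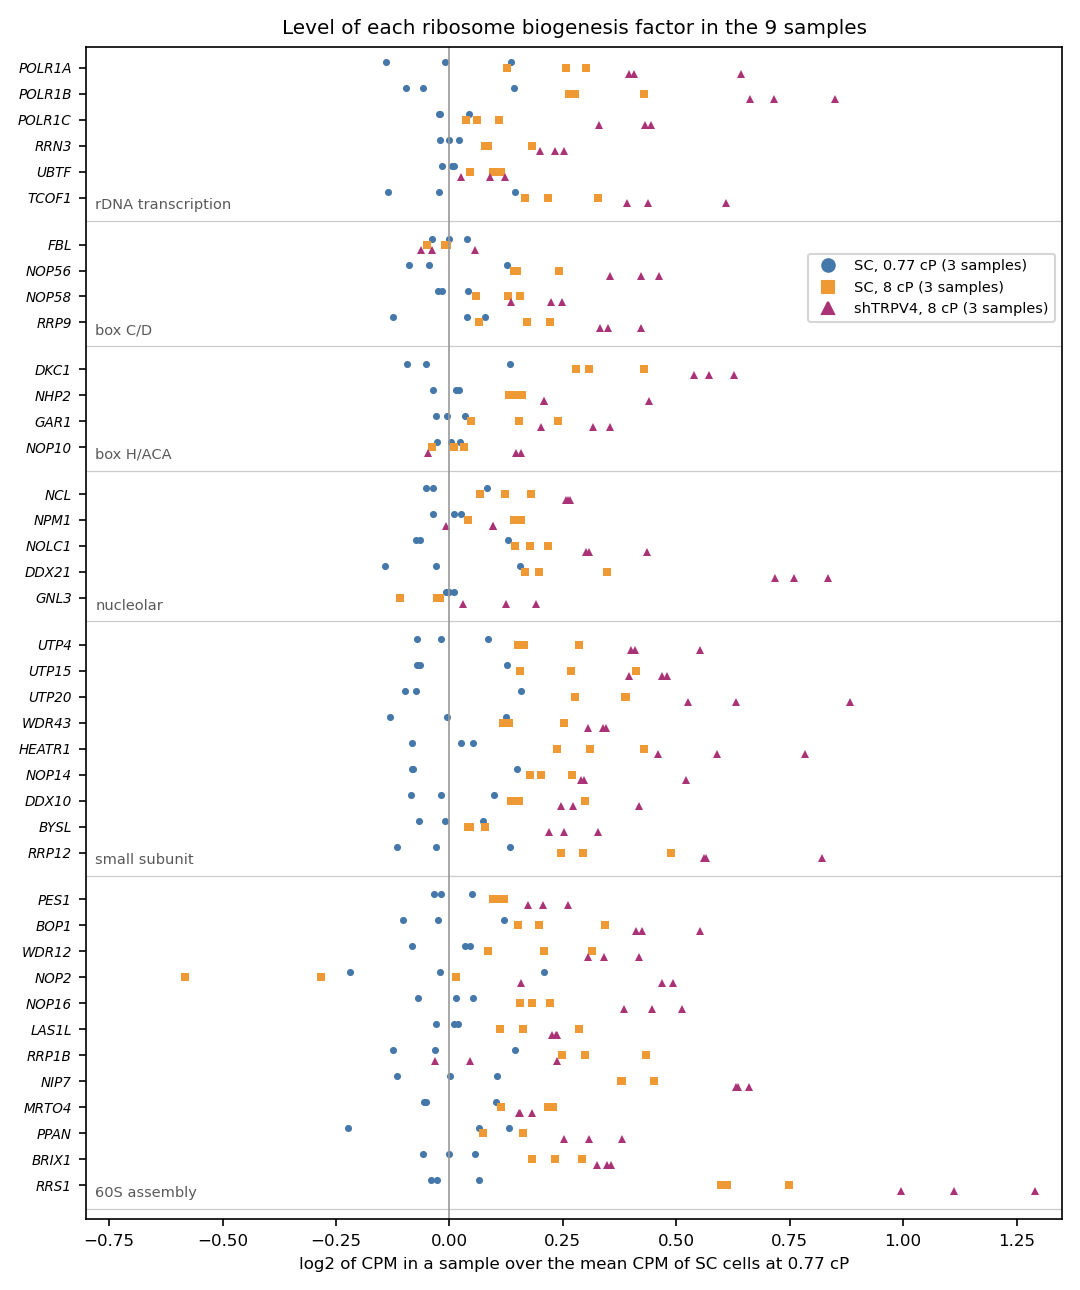
Level of each of the 40 factors in the 9 samples, as the log2 of its CPM over the mean CPM of the 3 SC samples at 0.77 cP; circles are SC cells at 0.77 cP, squares SC cells at 8 cP and triangles shTRPV4 cells at 8 cP, and genes are grouped by role. For most genes the squares lie to the right of the circles and the triangles to the right of the squares, with *RRS1* farthest right and *FBL*, *NOP10* and *UBTF* close to 0.

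Of the 6 genes for ribosomal DNA transcription, 3 rose with viscosity, 4 with the knockdown and 5 over both. *POLR1B* (ENSG00000125630, chr2:112541915-112579818, plus strand, GENCODE on GRCh38), the second largest subunit of RNA polymerase I, moved most. *POLR1B* stood at 33.8, 34.6 and 39.9 CPM in SC cells at 0.77 cP, 43.3, 43.7 and 48.6 CPM in SC cells at 8 cP and 65.0, 59.2 and 57.1 CPM in shTRPV4 cells. Every SC sample at 8 cP lay above those at 0.77 cP, and every shTRPV4 sample above both. The log2 difference was 0.32 ± 0.069 (SE) with viscosity and 0.42 ± 0.069 with the knockdown (edgeR adjusted p = 0.00571 and 0.000527). *POLR1A*, the largest subunit, followed it at smaller size. In SC cells *POLR1A* had 94.5, 86.3 and 105 CPM at 0.77 cP and 114, 104 and 117 CPM at 8 cP, while shTRPV4 cells had 148, 126 and 125 CPM. The ranges of the SC groups overlapped, and the shTRPV4 samples lay above both. This gave log2 differences of 0.23 ± 0.074 for viscosity and 0.26 ± 0.074 for the knockdown (edgeR adjusted p = 0.0431 and 0.0236).

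*TCOF1* encodes treacle, a nucleolar protein that links polymerase I transcription with processing of the precursor. *TCOF1* read 127, 117 and 143 CPM at 0.77 cP and 149.7, 145 and 162 CPM at 8 cP in SC cells, and 197, 169 and 174 CPM in shTRPV4 cells. The 3 groups did not overlap and rose in that order. On the log2 scale *TCOF1* was higher by 0.24 ± 0.070 with viscosity (edgeR adjusted p = 0.0282). It was higher by 0.24 ± 0.070 with the knockdown (edgeR adjusted p = 0.0233). *POLR1C*, a subunit shared by RNA polymerases I and III, differed in pattern. Levels of *POLR1C* were 36.3, 36.4 and 38.0 CPM in SC cells at 0.77 cP, 38.5, 37.9 and 39.8 CPM in SC cells at 8 cP and 46.4, 49.8 and 50.3 CPM in shTRPV4 cells. The SC groups overlapped, while every shTRPV4 sample lay higher. The log2 difference was 0.069 ± 0.049 with viscosity, which did not pass (edgeR adjusted p = 0.348), and 0.33 ± 0.048 with the knockdown (adjusted p = 0.000203). *POLR1C* shares 1009 of its 5505 exon bases with transcripts of the opposite strand. The strand option of the counting is not given in the sources used here. In all, 19 of the 40 members share more than 100 exon bases with other gene models, on either strand. With the opposite strand, *NOP14* shares 737 of 3559 bases, *NOP16* 521 of 2806 and *NHP2* 414 of 1476. *RRN3*, the initiation factor that makes the polymerase competent to start, passed only over both steps (0.12, 0.11 and 0.23 on the log2 scale, the last with an edgeR adjusted p of 0.00122). *UBTF*, the upstream binding factor of ribosomal DNA, passed in none, with log2 differences of 0.085 with viscosity and −0.0050 with the knockdown.

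The box C/D particle, which carries the 2′-O-methylation of ribosomal RNA, was uneven. Of its core proteins, *NOP56* was higher at both steps. *NOP56* stood at 164, 159 and 185 CPM in SC cells at 0.77 cP, 188, 187 and 200.3 CPM in SC cells at 8 cP and 233, 227 and 217 CPM in shTRPV4 cells. No SC sample at 8 cP fell into the range at 0.77 cP, and none of the shTRPV4 samples into either SC range. Its log2 rise was 0.18 ± 0.056 with viscosity and 0.24 ± 0.056 with the knockdown, with edgeR adjusted p = 0.0362 and 0.00762. *FBL* (fibrillarin), the methyltransferase of the same particle, passed in none of the comparisons. In SC cells *FBL* had 397, 377 and 387 CPM at 0.77 cP and 374, 385 and 385 CPM at 8 cP, while shTRPV4 cells had 371, 377 and 403 CPM. All 3 groups overlapped, and the 95% intervals of the log2 difference ran from −0.12 to 0.073 with viscosity and from −0.087 to 0.10 with the knockdown. *NOP58*, the partner of *NOP56*, had log2 differences of 0.11 and 0.088 at the steps and passed over both (0.20, edgeR adjusted p = 0.00219). *RRP9*, the protein specific to U3, the small nucleolar RNA of the early cleavages, rose with the knockdown (0.21, edgeR adjusted p = 0.0159) after a difference of 0.15 with viscosity that did not pass.

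In the box H/ACA particle, which makes pseudouridine, *DKC1* (dyskerin, ENSG00000130826, chrX:154762742-154777689, plus strand), the pseudouridine synthase, was the member that rose at each step. *DKC1* read 116, 119 and 136 CPM at 0.77 cP and 153, 150.2 and 167 CPM at 8 cP in SC cells, and 191, 184 and 179.7 CPM in shTRPV4 cells. The groups were separate at each step, with shTRPV4 cells highest. The log2 difference was 0.34 ± 0.059 (SE) with viscosity and 0.24 ± 0.059 with the knockdown (edgeR adjusted p = 0.00173 and 0.00936). Its partners *NHP2* and *GAR1* had differences of 0.14 and 0.15 with viscosity and 0.14 and 0.14 with the knockdown, none of which passed, and both were higher over the 2 steps (0.29 and 0.29, edgeR adjusted p = 0.000768 and 0.000534). *NOP10*, the smallest protein of the particle, passed in none (0.0021, 0.087 and 0.089).

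The ratio of 2 genes of a particle or complex was taken in each sample, for 3 pairs that were chosen after their values were seen and carry no test. The log2 ratio of *DKC1* to *NOP10* was 0.46 to 0.66 in SC cells at 0.77 cP, 0.78 to 0.95 in SC cells at 8 cP and 0.91 to 1.21 in shTRPV4 cells. The ratio of *NOP56* to *FBL* ran from −1.27 to −1.06, from −1.04 to −0.94 and from −0.89 to −0.67 in the same order. The ratio of *BOP1* to *PES1*, of the PeBoW complex of the large subunit, ran from 0.20 to 0.34, from 0.31 to 0.49 and from 0.42 to 0.61. For *NOP56* and *FBL* the 3 groups did not overlap, for *DKC1* and *NOP10* the groups at 8 cP did, and for *BOP1* and *PES1* neighbouring groups overlapped at both steps.

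Among 5 nucleolar proteins with several tasks, 2 rose with viscosity and 3 with the knockdown. *DDX21* (ENSG00000165732, chr10:68956135-68985068, plus strand), an RNA helicase that acts in both ribosomal DNA transcription and processing, had the largest change of the 40 with the knockdown when *NOP2* is set aside. Levels of *DDX21* were 223, 241 and 274 CPM in SC cells at 0.77 cP, 276, 282 and 313 CPM in SC cells at 8 cP and 439, 416 and 405 CPM in shTRPV4 cells. SC cells at 0.77 cP held the 3 lowest samples and shTRPV4 cells the 3 highest. This gave log2 differences of 0.24 ± 0.068 for viscosity and 0.53 ± 0.068 for the knockdown (edgeR adjusted p = 0.0226 and 6.21e-05). *NOLC1*, a chaperone of small nucleolar ribonucleoproteins, changed less. *NOLC1* stood at 195, 196 and 225 CPM in SC cells at 0.77 cP, 233, 227 and 239 CPM in SC cells at 8 cP and 278, 254 and 253 CPM in shTRPV4 cells. Every SC sample at 8 cP lay above those at 0.77 cP, and every shTRPV4 sample above both. On the log2 scale *NOLC1* was higher by 0.18 ± 0.057 with viscosity (edgeR adjusted p = 0.0372). It was higher by 0.17 ± 0.057 with the knockdown (edgeR adjusted p = 0.0474).

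*GNL3* (nucleostemin), a nucleolar GTPase, passed with the knockdown (0.17, edgeR adjusted p = 0.0199), with −0.051 for viscosity and 0.12 over both, neither of which passed. The most abundant members were *NPM1* (nucleophosmin), a chaperone and export factor, and *NCL* (nucleolin), an RNA-binding protein of the nucleolus. In SC cells *NPM1* had 1622, 1677 and 1694 CPM at 0.77 cP and 1712, 1836 and 1857 CPM at 8 cP, while shTRPV4 cells had 1656, 1779 and 1779.8 CPM. These values gave log2 differences of 0.11 and −0.052, and *NPM1* passed in no comparison. *NCL* had 0.12 and 0.14, and passed over both steps (0.26, edgeR adjusted p = 0.000412). *NPM1* has 49 annotated pseudogenes, which held 3.58% of the counts of the gene and these copies together, and its value is uncertain where reads could be split.

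**Figure D2:**
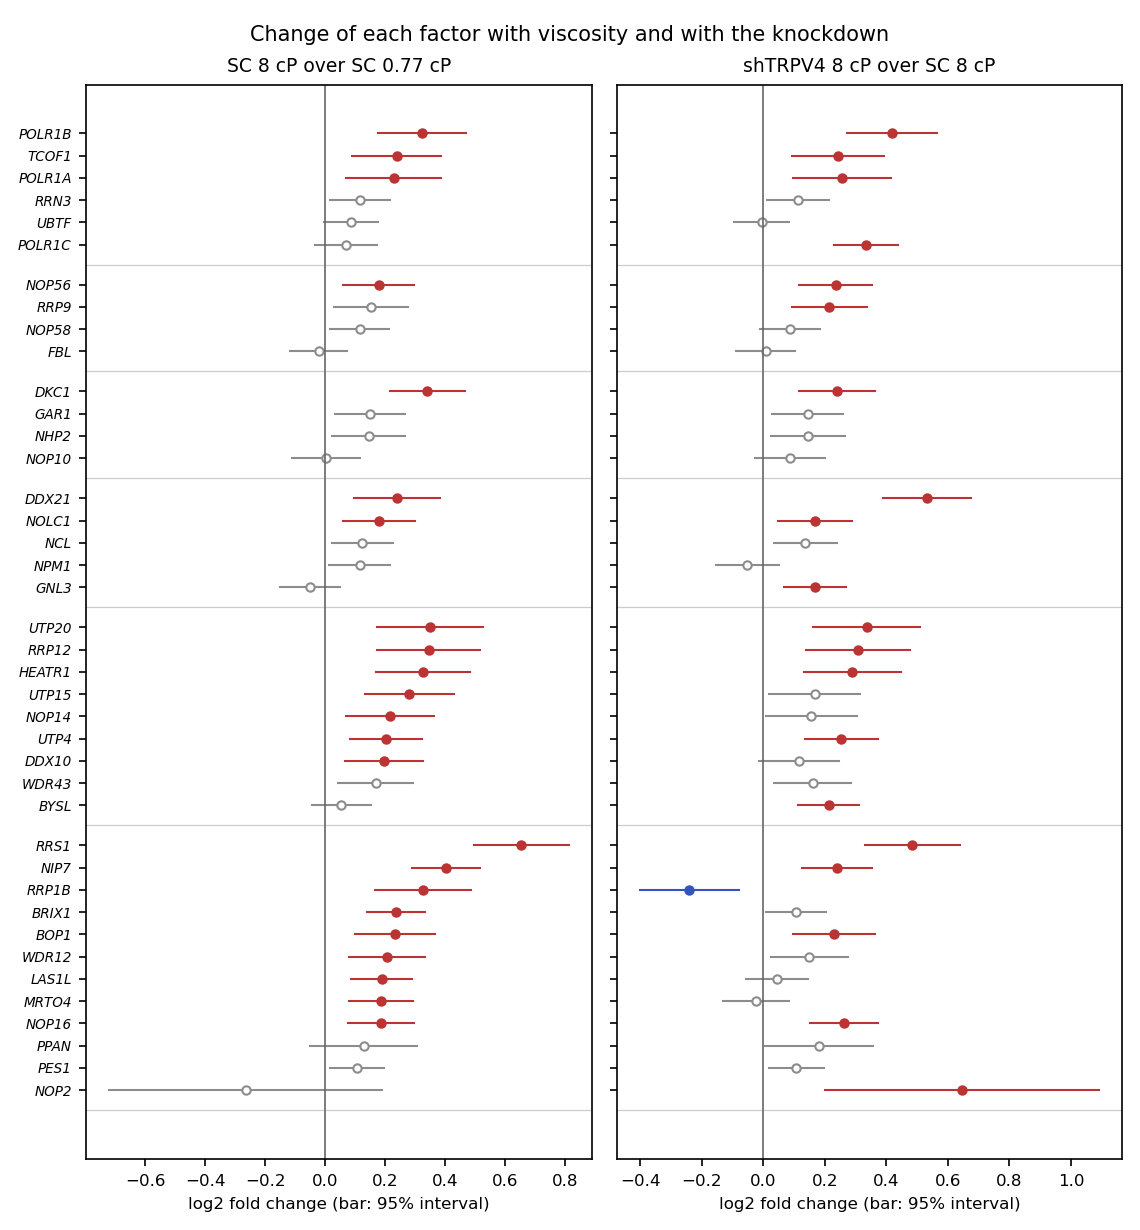
Log2 fold change of each factor with its 95% interval, for SC cells at 8 cP over SC cells at 0.77 cP (left) and shTRPV4 over SC cells at 8 cP (right); filled red points were called higher, the filled blue point lower, and open grey points did not pass. *RRP1B* is the one blue point, and *NOP2* has the widest intervals, from −0.72 to 0.19 on the left and from 0.20 to 1.09 on the right.

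Of the 9 small subunit factors 7 rose with viscosity, 5 with the knockdown and all 9 over both steps, with differences between 0.27 and 0.69 over both. *UTP20*, a very large scaffold protein of the processome, and *RRP12*, a factor of 40S maturation and export, led. *UTP20* read 39.3, 38.6 and 46.2 CPM at 0.77 cP and 54.1, 50.1 and 54.2 CPM at 8 cP in SC cells, and 76.3, 64.0 and 59.6 CPM in shTRPV4 cells. The 3 groups did not overlap and rose in that order. Its log2 rise was 0.35 ± 0.083 with viscosity and 0.34 ± 0.082 with the knockdown, with edgeR adjusted p = 0.00949 and 0.0093. Levels of *RRP12* were 49.0, 46.2 and 55.0 CPM in SC cells at 0.77 cP, 61.5, 59.4 and 70.2 CPM in SC cells at 8 cP and 88.5, 74.1 and 73.9 CPM in shTRPV4 cells. No SC sample at 8 cP fell into the range at 0.77 cP, and none of the shTRPV4 samples into either SC range. The log2 difference was 0.35 ± 0.080 (SE) with viscosity and 0.31 ± 0.080 with the knockdown (edgeR adjusted p = 0.00877 and 0.0132).

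*HEATR1* (UTP10) and *UTP4* belong to the processome subcomplex that also acts in transcription of ribosomal DNA. *HEATR1* stood at 30.9, 28.6 and 31.4 CPM in SC cells at 0.77 cP, 37.6, 35.7 and 40.8 CPM in SC cells at 8 cP and 52.2, 45.6 and 41.6 CPM in shTRPV4 cells. The groups were separate at each step, with shTRPV4 cells highest. This gave log2 differences of 0.33 ± 0.074 for viscosity and 0.29 ± 0.073 for the knockdown (edgeR adjusted p = 0.00784 and 0.0116). In SC cells *UTP4* had 78.6, 81.6 and 87.7 CPM at 0.77 cP and 91.8, 92.7 and 101 CPM at 8 cP, while shTRPV4 cells had 121, 109 and 109.8 CPM. SC cells at 0.77 cP held the 3 lowest samples and shTRPV4 cells the 3 highest. On the log2 scale *UTP4* was higher by 0.20 ± 0.056 with viscosity (edgeR adjusted p = 0.0219). It was higher by 0.25 ± 0.056 with the knockdown (edgeR adjusted p = 0.00494). *HEATR1* shares 2095 of its 9061 exon bases with *LGALS8* on the other strand.

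A further 3 factors passed with viscosity and over both steps but not with the knockdown alone. *UTP15*, of the same subcomplex, had log2 differences of 0.28, 0.17 and 0.45 with viscosity, with the knockdown and over both. *NOP14* had 0.22, 0.16 and 0.37, and the helicase *DDX10* had 0.20, 0.12 and 0.31. *BYSL* (bystin), which acts in late 40S maturation, rose with the knockdown (0.21, edgeR adjusted p = 0.00464) and had 0.054 with viscosity. *WDR43* (UTP5) had 0.17 and 0.16 at the steps, neither of which passed, and 0.33 over both. Whether the knockdown acts differently on these genes than on the others was not tested.

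Of the 12 large subunit factors, 9 rose with viscosity, 5 rose and 1 fell with the knockdown, and 10 were higher over both. *RRS1*, which helps bring the 5S ribonucleoprotein into the precursor of the large subunit, had the largest change of all 40 members with viscosity and over both steps. *RRS1* read 13.8, 13.9 and 14.8 CPM at 0.77 cP and 21.7, 21.5 and 23.8 CPM at 8 cP in SC cells, and 34.7, 28.3 and 30.7 CPM in shTRPV4 cells. Every SC sample at 8 cP lay above those at 0.77 cP, and every shTRPV4 sample above both. Its log2 rise was 0.65 ± 0.075 with viscosity and 0.48 ± 0.072 with the knockdown, with edgeR adjusted p = 4.44e-05 and 0.000259. Over both steps it was 2.20 times as high (1.14 ± 0.074 on the log2 scale, edgeR adjusted p = 2.28e-08). *RRS1* shares 194 of its 1720 exon bases with another gene model on the same strand.

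*NIP7* (ENSG00000132603, chr16:69337996-69343106, plus strand), a factor of 60S biogenesis and precursor processing, came next with viscosity. Levels of *NIP7* were 41.2, 44.6 and 48.0 CPM in SC cells at 0.77 cP, 58.0, 57.9 and 60.9 CPM in SC cells at 8 cP and 69.2, 70.4 and 69.0 CPM in shTRPV4 cells. The 3 groups did not overlap and rose in that order. The log2 difference was 0.40 ± 0.054 (SE) with viscosity and 0.24 ± 0.053 with the knockdown (edgeR adjusted p = 0.00021 and 0.00492). *NIP7* shares 873 of its 4744 exon bases with *COG8* on the other strand. *BRIX1*, which works in early 60S particles, rose with viscosity. *BRIX1* stood at 68.1, 70.8 and 73.7 CPM in SC cells at 0.77 cP, 80.4, 83.3 and 86.7 CPM in SC cells at 8 cP and 88.8, 90.8 and 90.1 CPM in shTRPV4 cells. No SC sample at 8 cP fell into the range at 0.77 cP, and none of the shTRPV4 samples into either SC range. The log2 difference was 0.24 ± 0.046 with viscosity (edgeR adjusted p = 0.00328) and 0.11 ± 0.046 with the knockdown, which did not pass (adjusted p = 0.115).

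*PES1*, *BOP1* and *WDR12* form the PeBoW complex, which is needed to process the RNA of the large subunit. In SC cells *BOP1* had 159.8, 152 and 177 CPM at 0.77 cP and 181, 187 and 206 CPM at 8 cP, while shTRPV4 cells had 239, 218 and 216 CPM. The groups were separate at each step, with shTRPV4 cells highest. This gave log2 differences of 0.23 ± 0.063 for viscosity and 0.23 ± 0.063 for the knockdown (edgeR adjusted p = 0.0187 and 0.0177). *WDR12* passed with viscosity (0.21, edgeR adjusted p = 0.0247) and had 0.15 with the knockdown. *PES1* had 0.11 and 0.11 at the steps and passed over both (0.21, edgeR adjusted p = 0.000794), so all 3 subunits of the complex were higher in shTRPV4 cells than in SC cells at the low viscosity.

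*NOP16* was the last of the 15 genes that rose at both steps. *NOP16* read 28.6, 30.3 and 31.1 CPM at 0.77 cP and 33.4, 35.0 and 34.0 CPM at 8 cP in SC cells, and 40.8, 39.2 and 42.8 CPM in shTRPV4 cells. SC cells at 0.77 cP held the 3 lowest samples and shTRPV4 cells the 3 highest. On the log2 scale *NOP16* was higher by 0.19 ± 0.052 with viscosity (edgeR adjusted p = 0.0216). It was higher by 0.26 ± 0.052 with the knockdown (edgeR adjusted p = 0.00222). *LAS1L*, of the nuclease complex that cuts the second internal spacer, and *MRTO4*, which holds the place of the ribosomal stalk, rose with viscosity (0.19 and 0.19, edgeR adjusted p = 0.0133 and 0.0183). Their differences with the knockdown were 0.045 and −0.024 and did not pass. *PPAN*, a 60S factor of the Brix domain family, passed over both steps only (0.13, 0.18 and 0.31), and 1422 of its 2888 exon bases belong to other gene models on the same strand.

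*RRP1B* (ENSG00000160208, chr21:43659560-43696079, plus strand), a nucleolar protein related to a yeast 60S factor, was the 1 member that fell at a step. Levels of *RRP1B* were 53.0, 49.7 and 59.9 CPM in SC cells at 0.77 cP, 66.7, 64.4 and 73.1 CPM in SC cells at 8 cP and 63.8, 55.9 and 53.0 CPM in shTRPV4 cells. SC cells at 8 cP lay above both other groups, and these 2 overlapped. It rose by 0.33 ± 0.075 with viscosity (edgeR adjusted p = 0.00846) and was lower by 0.24 ± 0.075 in shTRPV4 than in SC cells at 8 cP (adjusted p = 0.0348). Over both steps the difference was 0.086 and did not pass. The fall was lost when counts were scaled by library size alone and in 4 of 9 fits with a sample removed: those without replicate 1 or 3 of SC cells at 8 cP and those without replicate 2 or 3 of shTRPV4 cells.

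*NOP2*, a methyltransferase of the large subunit RNA, could hardly be measured. It had 0.68, 0.78 and 0.91 CPM in SC cells at 0.77 cP, 0.80, 0.53 and 0.65 CPM in SC cells at 8 cP and 1.11, 0.88 and 1.09 CPM in shTRPV4 cells, while the other 39 members had at least 601 counts in every sample. A second gene model on the same strand, which has 0 counts in the files, covers 2550 of its 4687 exon bases. Its call with the knockdown (0.65 ± 0.21, edgeR adjusted p = 0.0406) is 1 of the 20 and is uncertain for that reason.

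**Figure D3:**
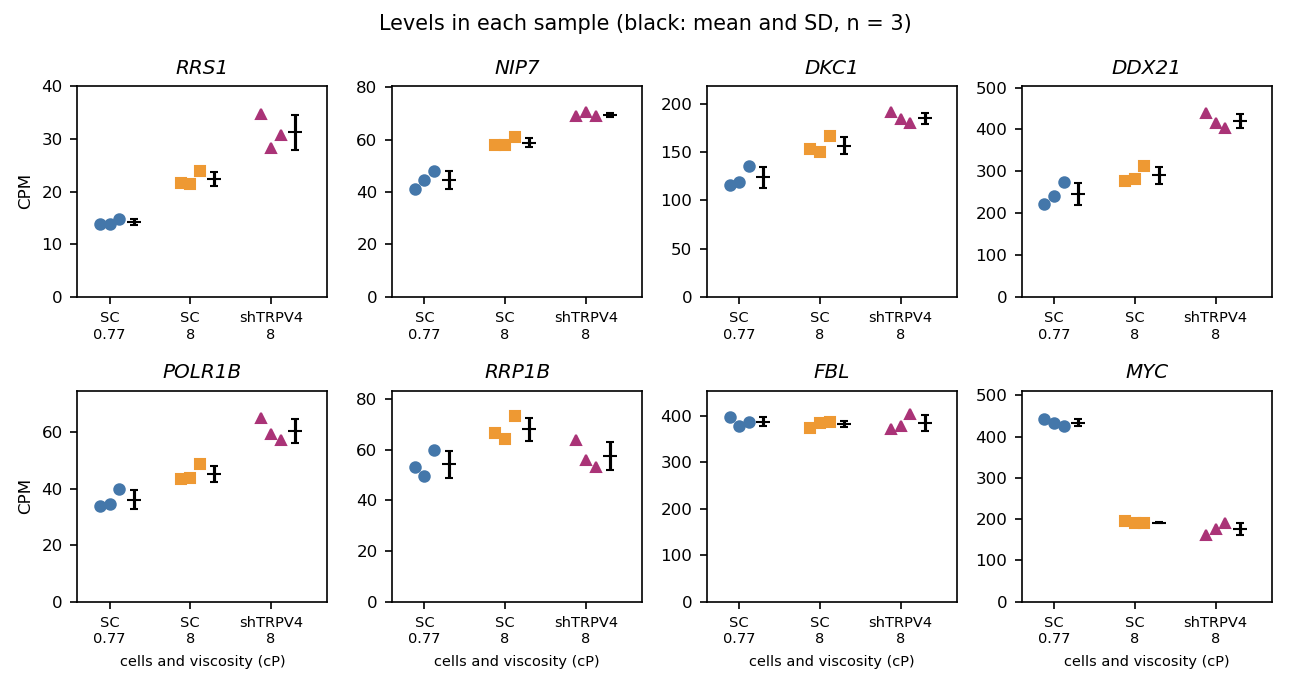
CPM in each of the 9 samples for 7 members and *MYC*, each panel with an axis from 0; black marks are the mean and SD of 3 samples. *RRS1*, *NIP7*, *DKC1*, *DDX21* and *POLR1B* step up both times, *RRP1B* is highest in SC cells at 8 cP, *FBL* stays between 371 and 403 CPM, and *MYC* drops from 434 to 192 CPM at the first step.

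Sorted by their calls, 15 members rose at both steps, 7 rose with viscosity and stayed higher over both, 3 rose with the knockdown and over both, and 8 passed over both steps only. *GNL3* and *NOP2* passed with the knockdown alone, *RRP1B* rose and then fell, and *UBTF*, *FBL*, *NOP10* and *NPM1* passed nowhere. A pass in 1 comparison and a miss in another does not show that the effects differ, which was not tested. The share of all genes tested with each of these patterns was not taken, so these counts only sort the members.

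The larger changes tended to lie among the less abundant members. Per kilobase of the canonical transcript, levels of the members other than *NOP2* in SC cells at 0.77 cP spanned 352-fold, from 3.58 CPM per kb for *HEATR1* to 1261 for *NPM1*. For Spearman's rho the level was instead the mean log2 CPM over all 9 samples, per kilobase. Across the 40 genes, rho between that mean level and the log2 difference was −0.439 with viscosity and −0.373 with the knockdown. Across 18227 genes it was 0.174 and −0.0665. For transcript length rho was 0.501 and 0.232 among the members and 0.119 and −0.019 among all genes, and for GC content −0.198 and 0.0829 against −0.203 and 0.0507. These are descriptions across genes that share the same 9 libraries, and the mean level includes the samples of both differences. With a trend on length and GC content removed, an alternative added after the data were seen, 25 members were called higher with viscosity, 24 with the knockdown and 34 over both.

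**Figure D4:**
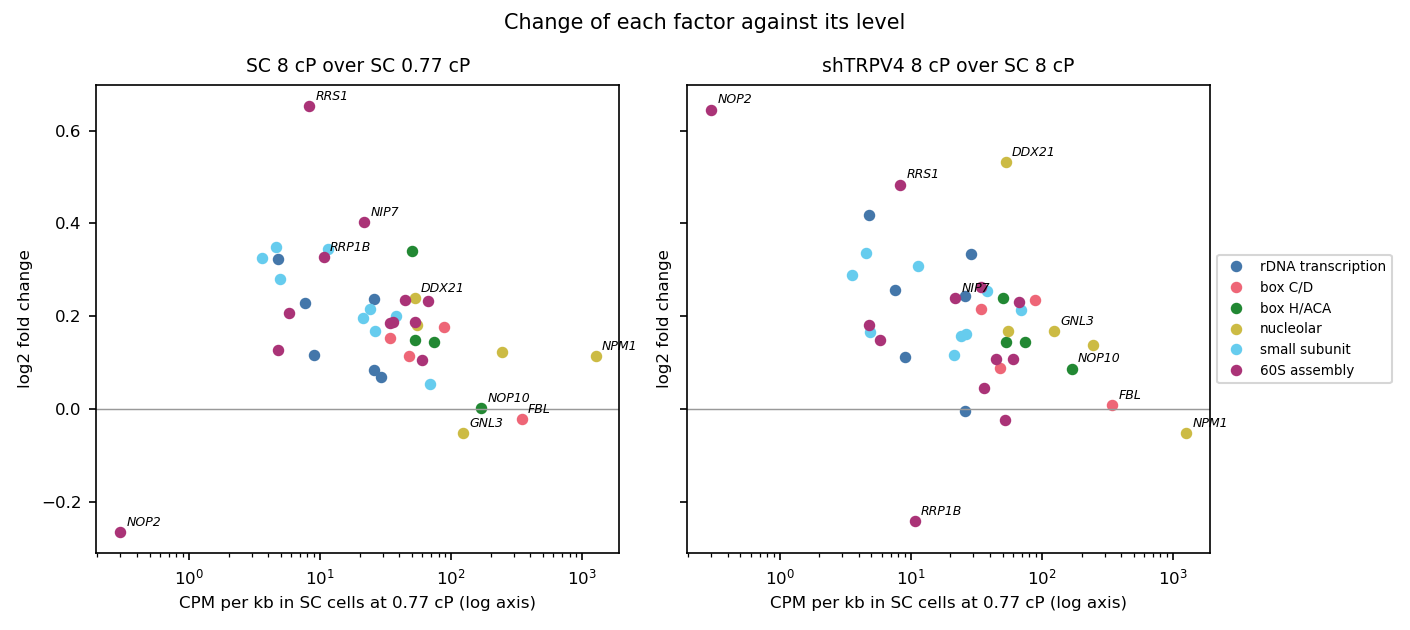
Log2 fold change of each factor (vertical) against its CPM per kilobase in SC cells at 0.77 cP (horizontal, log axis), coloured by role, for viscosity (left) and the knockdown (right). *FBL* lies near 0 in both panels, *NPM1*, the most abundant, lies at 0.11 and −0.052, and *RRS1* and *NOP2* stand apart from the rest.

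Motifs in the start regions, which the choice of genes did not use, were counted next. Windows of 300 bases (250 before to 50 after the start, RefSeq, GRCh38.p14) were matched by symbol for 33 of the 40 members, taking the first window listed for a gene; *TCOF1*, *NOP58*, *NOLC1*, *RRP12*, *BOP1*, *RRP1B* and *RRS1* had no entry. The E-box CACGTG, the palindrome to which *MYC* and *MAX* and related factors bind, occurred in 11 of the 33 (33.3%), against 7.43% of 27305 windows and 9.76% of 12108 windows of genes tested. The letters CCGGAAG of the ETS family site, sought on both strands, occurred in 13 (39.4%), against 10.7% and 18.2%, and those of YY1, GCCATNTTG, in 3 (9.09%), against 3.04% and 4.96%. Whether matches of different motifs share bases was not checked, and a match is a description and not a bound site.

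Of the E-boxes, 6 are shown with 12 bases on either side, read 5′ to 3′ on the strand of the gene with the E-box in capitals, from 4 members that rose with viscosity and from 2 that passed in no comparison.
UTP20, chr12:101280083-101280112, plus strand: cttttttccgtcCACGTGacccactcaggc
UTP4, chr16:69132621-69132650, plus strand: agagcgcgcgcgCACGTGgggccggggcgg
NOP14, chr4:2963374-2963403, minus strand: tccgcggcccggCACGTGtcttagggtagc
MRTO4, chr1:19251807-19251836, plus strand: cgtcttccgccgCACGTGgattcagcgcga
FBL, chr19:39846356-39846385, minus strand: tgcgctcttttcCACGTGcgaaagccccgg
NOP10, chr15:34343130-34343159, minus strand: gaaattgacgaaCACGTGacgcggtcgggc
Counted with the start base as 0, the E-box of *UTP20* begins at position −10, that of *UTP4* at −16, the one shown of *NOP10* at −11, that of *FBL* at 6, that of *MRTO4* at 14 and that of *NOP14* at 15. *NOP10* has a second E-box, at −170. Of the members with an E-box 4 of 11 rose with viscosity (median 0.153), and of those without one 13 of 22 (0.187). With the knockdown these were 5 of 11 (0.161) and 10 of 22 (0.168).

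*MYC* itself, the transcription factor known for raising ribosome biogenesis genes, went the other way. It had 442, 433 and 427 CPM in SC cells at 0.77 cP, 195, 191 and 190.3 CPM in SC cells at 8 cP and 162, 175 and 192 CPM in shTRPV4 cells. Every sample at 8 cP lay below every sample at 0.77 cP, and the 2 groups at 8 cP overlapped. The log2 difference with viscosity was −1.18 ± 0.05 (edgeR adjusted p = 6.40e-10), and with the knockdown it was −0.12 and did not pass (adjusted p = 0.125). Of 10 tested genes of the *MYC* network, 0 rose and 4 (40%) fell at each step, against 9.69% and 11.0% of all genes that fell. With viscosity the smallest adjusted p were those of *MYC* and *MXD1*, a *MAX* partner that represses (−0.48), and with the knockdown those of *MXD1* (−0.50) and *MXD3* (−0.37). Its part in the members' levels was not tested.

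Other genes of ribosome assembly, in 5 lists with 144 genes that are no members, also had more rises than falls, with smaller medians. With viscosity 55 (38.2%) rose and 4 (2.78%) fell (median 0.128). With the knockdown 43 (29.9%) rose and 4 (2.78%) fell (0.101), and over both 93 (64.6%) rose and 10 (6.94%) fell (0.231). Of all genes, 9.57%, 9.02% and 20.4% rose and 9.69%, 11.0% and 22.0% fell in the same order. Genes named from these lists, and from that of the ribosomal proteins, are those with the smallest adjusted p in a direction, and others of a list can have larger differences. The list of further 60S factors had 22 of 52 (42.3%) higher with viscosity, among them *PAK1IP1* (0.45) and *SDAD1* (0.32). In that list 2 (3.85%) fell, *NOP53* (−0.19) and *RSL24D1* (−0.22). With the knockdown 22 (42.3%) were higher, among them *CCDC86* (0.73) and *PELP1* (0.36), and 1 (1.92%) was lower. That one was *NOC2L*, a nucleolar protein and inhibitor of histone acetyltransferases, with 199, 199.7 and 216 CPM in SC cells and 108, 99.3 and 104 CPM in shTRPV4 cells at 8 cP (−0.98 ± 0.05, edgeR adjusted p = 6.00e-09). Its groups were far apart, with a fall larger than that of *RRP1B*.

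Of 47 further small subunit genes 17 (36.2%) rose with viscosity, among them *RRP36* (0.30) and *WDR36* (0.24), and 0 fell. With the knockdown 10 (21.3%) rose, among them *AATF* (0.29) and *LTV1* (0.33), and *UTP18* (−0.16) and *EMG1* (−0.18) fell (4.26%). Of 16 further genes for ribosomal DNA transcription, 4 (25%) rose with viscosity, among them *POLR1F* (0.24) and *TAF1B* (0.21). *POLR2H* (−0.21), a subunit that all 3 polymerases share, fell (6.25% of the list). With the knockdown 4 (25%) rose, among them *TAF1C* (0.32) and *POLR2F* (0.18). Over both steps *POLR1F* (0.38) and *POLR1G* (0.59) were higher, and *POLR1H* (−0.28) and *POLR2H* (−0.21) were lower. The subunits of RNA polymerase I thus did not all move one way. Some genes named from these lists share exon bases with other genes. *LTV1* shares 643 of 1853 on the same strand, and *EMG1* 624 of 5575 on the same strand and 3096 on the other. *POLR1G* shares 1593 of 3197 with the other strand, and *POLR1H* 104 of 3672 with the same strand and 900 with the other.

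Of 11 genes for assembly of nucleolar ribonucleoproteins, 6 (54.5%) rose with viscosity, among them *NOPCHAP1* (0.26) and *SHQ1* (0.21), and *ZNHIT3* (−0.22) fell (9.09%). With the knockdown 4 (36.4%) rose, among them *ZNHIT6* (0.30) and *RUVBL1* (0.27), while *RUVBL2* (−0.22), which forms a complex with *RUVBL1*, fell (9.09%). Of 18 genes of the RNA exosome and related nucleases, 6 (33.3%) rose with viscosity, among them *MTREX* (0.22) and *EXOSC3* (0.22). With the knockdown 3 (16.7%) rose, among them *EXOSC6* (0.25) and *EXOSC7* (0.21). None of these 18 fell in either comparison by edgeR's test. Over both steps the rises with the smallest adjusted p were those of *LTV1* (0.54) and *AATF* (0.38) among small subunit genes, *CCDC86* (1.02) and *PAK1IP1* (0.75) among 60S genes, *ZNHIT6* (0.45) and *RUVBL1* (0.46) among assembly genes, and *EXOSC6* (0.50) and *MPHOSPH6* (0.42) among nucleases. The falls over both with the smallest adjusted p in a list were those of *NOC2L* (−0.86), *NOP53* (−0.34), *ZNHIT3* (−0.37) and *RUVBL2* (−0.21).

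The ribosomal proteins, which these factors put together with ribosomal RNA, gave few rises. Of 79 cytosolic ribosomal protein genes, 1 rose and 6 fell with viscosity (median −0.0602). With the knockdown 3 rose and 4 fell (−0.0985), and over both 5 rose and 44 fell (−0.154). The falls were 7.59%, 5.06% and 55.7% of the list, against 9.69%, 11.0% and 22.0% of all genes. The rises were 1.27%, 3.8% and 6.33%, against 9.57%, 9.02% and 20.4%. At each single step the share that fell was thus below that of all genes. *RPS9* (−0.27) and *RPL34* (−0.28) were among those that fell with viscosity, *RPS3A* (−0.27) among those with the knockdown, and *RPS3A* (−0.47) and *RPS9* (−0.41) among those over both. The 1 rise with viscosity was *RPS26* (0.20). Over the 17 alternatives the number that fell ran from 0 to 18 with viscosity, from 0 to 24 with the knockdown and from 25 to 53 over both, and the 3 medians stayed below 0. *RPL36A* and *RPS10*, which rose with the knockdown (0.55 and 0.52) and over both (0.75 and 0.93), had at most 4.55 and 2.60 CPM and share 333 and 730 exon bases with other genes on the same strand.

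**Figure D5:**
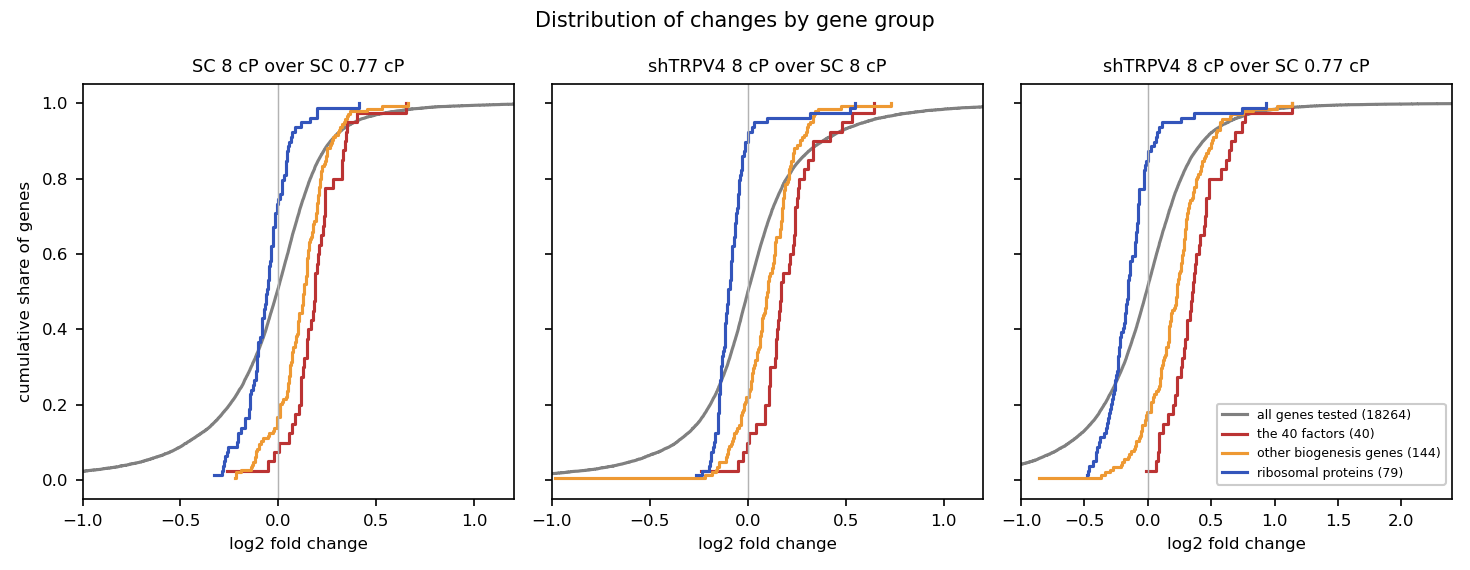
Cumulative share of genes by log2 fold change in the 3 comparisons, for the 40 factors, 144 other biogenesis genes, 79 ribosomal proteins and the 18264 genes tested. The curve of the factors lies to the right of the curve of the other biogenesis genes over most of its length, and the curve of the ribosomal proteins lies mostly to the left of 0. The axes do not show the most extreme of all genes.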

How the data were processed

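Per the labels and the study's methods, poly(A) RNA of MDA-MB-231 cells was made into strand-specific libraries, which the authors mapped to GRCh38.p13 with HISAT2 2.2.1, and the authors counted exon reads per Ensembl gene with HTSeq 0.13.5. The raw counts of each of the 9 samples were deposited without normalization. The strand option and the handling of reads with several matches are not given in the sources used here, and SAMtools 1.1.3 and DESeq also stand in the submitters' processing notes.

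Genes were kept by filterByExpr, scaled by TMM and tested with edgeR 4.0.16 (quasi-likelihood, R 4.3.3) in a model with 1 coefficient per group over all 9 samples. P-values were adjusted by Benjamini-Hochberg over 18264 genes, with a threshold of 0.05. The test was also run on counts simulated from its own fitted dispersions, which cannot show how well its model holds for these data. No test was run on the list as a whole. The 40 members, the other lists and the rule for named genes were chosen with earlier results of these data known. All members are named, with sample values for those that passed at both steps and for the 4 with the smallest adjusted p in each direction of a comparison, and, after their values were seen, for *FBL*, *NPM1* and *NOP2*. Of each other list, the 2 with the smallest adjusted p in each direction are named, except 1 gene that is not reported here. The alternatives were DESeq2 1.42.0, upper quartile scaling, library size alone, 2 other filters, the 6 samples compared, a replicate block, each sample left out, and a length and GC trend removed. Gene models come from GENCODE for GRCh38. The floor of 3 counts only marks a value as low and was not part of the filter or the test.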

Additional observations from a re-analysis of the deposited data

How the results depend on the processing

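Under the 8 alternatives that kept all samples of a comparison, members called higher numbered 23 to 29 with viscosity, 20 to 27 with the knockdown and 33 to 34 over both. Leaving out 1 sample at a time gave 8 to 26, 11 to 22 and 32 to 35, and medians of 0.155 to 0.249, 0.153 to 0.206 and 0.320 to 0.401 on the log2 scale. These fits have fewer samples. Called in every one of 17 alternatives were 8 members with viscosity, 10 with the knockdown and 32 over both. The share of all genes called in every alternative was not taken. Among all genes tested, those called higher ran from 671 to 2358 with viscosity over the 17 alternatives. With the knockdown they ran from 890 to 2082, and over both steps from 3092 to 4223. The 1 member lower with the knockdown (*RRP1B*) became 0 with library size alone and ranged from 0 to 1 with samples left out. Replicate numbers are shared between groups, but same-numbered samples deviated with correlations of −0.169 to 0.27, against −0.241 to 0.266 for other pairs, and not every sample correlated best with its own number. With the replicate block 25, 24 and 34 members were called higher.

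Signs turned only for differences that were near 0 with all samples and the main settings, and that did not pass there. *TRPV4* with viscosity turned farthest, to 0.27 without replicate 3 of SC cells at 8 cP. With the length and GC trend removed, *FBL* was 0.044 with viscosity and 0.055 over both, and *TRPV4* 0.040 with viscosity. *NOP10* with viscosity was −0.0077 by upper quartile scaling and −0.0012 with the 6 samples compared, and *TRPV4* with viscosity was 0.00016 by DESeq2. With library size alone *UBTF* was 0.023 and *MRTO4* 0.0036 with the knockdown, and *FBL* 0.014 over both. With samples left out the ranges were *FBL* −0.032 to 0.0040 with viscosity, *NOP10* −0.0054 to 0.030 with viscosity, *TRPV4* −0.33 to 0.27 with viscosity, *UBTF* −0.028 to 0.020 with the knockdown, *FBL* −0.029 to 0.031 with the knockdown, *FBL* −0.050 to 0.011 over both. The cause of these turns was not tested. Other scalings moved the median of all genes by at most 0.0277. The depth limits *TRPV4*, with 1 to 64 counts in a sample.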
